A study of Saccharomyces cerevisiae with 14 samples.

Results

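Saccharomyces cerevisiae arrays of 2 groups that carry the same wild-type genotype in their labels were compared: the wild type hybridised for the JHD2 overexpression experiment, called here the OE wild type (2 arrays), and the wild type hybridised for the jhd2 deletion experiment, called here the jhd2 wild type (3 arrays). The members are these 5 of the 14 arrays of the series, chosen by their titles, and the readout is every S. cerevisiae gene with a probe set of its own on the Affymetrix Yeast 2.0 array. The series as a whole sought to separate functions of Jhd2, a histone H3 lysine 4 demethylase, that depend on lysine 4 methylation from those that do not, by setting JHD2-altered strains beside a strain that lacks SET1, the gene of the lysine 4 methyltransferase.

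Both wild types are labelled with the alleles his3∆1, le2∆0 (spelled so), lys2∆0 and ura3∆0, and as TRP+, MET15+ and ADE+. The wild type of the set1 experiment (2 arrays) has the same label. The JHD2 overexpression strain (2 arrays) is labelled as jhd2∆::KanMx with JHD2 O/E, in a background of his3-1, leu2-0, lys2-0 and ura3-0. The jhd2 deletion strain (3 arrays) is labelled jhd2::KanMX with the same 4 auxotrophic alleles as the wild types. All cultures were started at an OD600 of 0.2 and shaken at 30 °C for 3 to 5 hours, to an OD600 between 0.6 and 0.7. The growth medium, the promoter and vector that drive JHD2, and any plasmid in the OE wild type were not stated in the labels. Since the comparison crosses experiments, strain stock, culture, medium and hybridisation batch cannot be told apart. The titles call the arrays biological replicates and say no more about separate cultures, so the p-values measure the spread between these arrays.

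Yeast meets nutrient shortage with small sets of genes under dedicated activators. Zap1 turns on zinc uptake when zinc is low, Mac1 turns on copper uptake and surface reductases when copper is low, Aft1 turns on iron uptake when iron is low, and Pho4 turns on phosphate transporters and secreted phosphatases when phosphate is low. Gcn4 raises amino acid synthesis when amino acids are short, GATA factors raise permeases and catabolic genes when good nitrogen sources are short, and glucose keeps genes for other carbon sources off.

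JHD2, the altered gene of both experiments, had signals of 226 and 211 in the OE wild type and of 138, 119 and 140 in the jhd2 wild type. It lay at 5207 and 6237 in the overexpression strain and at 3.22, 3.41 and 0.23 in the deletion strain, so it followed the labels of the altered strains. Between the wild types its log2 difference was 0.73 ± 0.41 (SE), with a limma adjusted p of 0.238. Both wild types carried the α mating expression type. The summed signal of 5 α-specific genes was 15762 and 15423 in the OE wild type and 19985, 19570 and 22816 in the jhd2 wild type, against 665 and 704 in the set1 wild type. The summed signal of 7 a-specific genes was 425 and 348, then 247, 236 and 291, against 11252 and 11125 in the set1 wild type. None of these 12 marker genes was at 0 on any array. Array quality separated 1 member: the 3′ over 5′ log2 ratio of the control transcripts was 1.499 in jhd2 wild type replicate 3, against 0.54 and 0.60 in the other replicates and 0.88 and 0.66 in the OE wild type. This ratio was 1.33 in replicate 3 of the jhd2 deletion strain, against 0.55 in both its other replicates, and 1.44 and 1.43 in the overexpression strain. Its part in the results was not tested beyond the values given without these arrays and with the ratio as a covariate.

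LEU2, the isopropylmalate dehydrogenase gene of leucine synthesis, was one of the features by which these wild types were set apart, so its values are a description without a test. ZPS1, PHO11 and CTR1 were also named beforehand as markers of these wild types. The adjusted p-values printed below for these markers between the wild types are therefore no independent support. The LEU2 signal was 6875 and 7294 in the OE wild type and 28.6, 27.6 and 5.82 in the jhd2 wild type. It was 6895 and 6823 in the overexpression strain, 10.54, 46.2 and 13.7 in the deletion strain, and 21.1 and 18.6 in the set1 wild type. All 4 arrays of the overexpression experiment were thus high, although the labels give a leucine allele for both of its strains. The mean log2 difference was 8.73, and 7.98 without jhd2 wild type replicate 3, where the probe set was below the background of that array. The other auxotrophic genes did not split in this way. URA3 stayed between 1.09 and 8.90 and LYS2 between 1.12 and 9.34 on the 5 arrays. HIS3 was 3236 and 3407 in the OE wild type and 1669, 1693 and 1408 in the jhd2 wild type, a log2 difference of 1.07 ± 0.15 (SE) with a limma adjusted p of 0.000683.

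**Figure D1:**
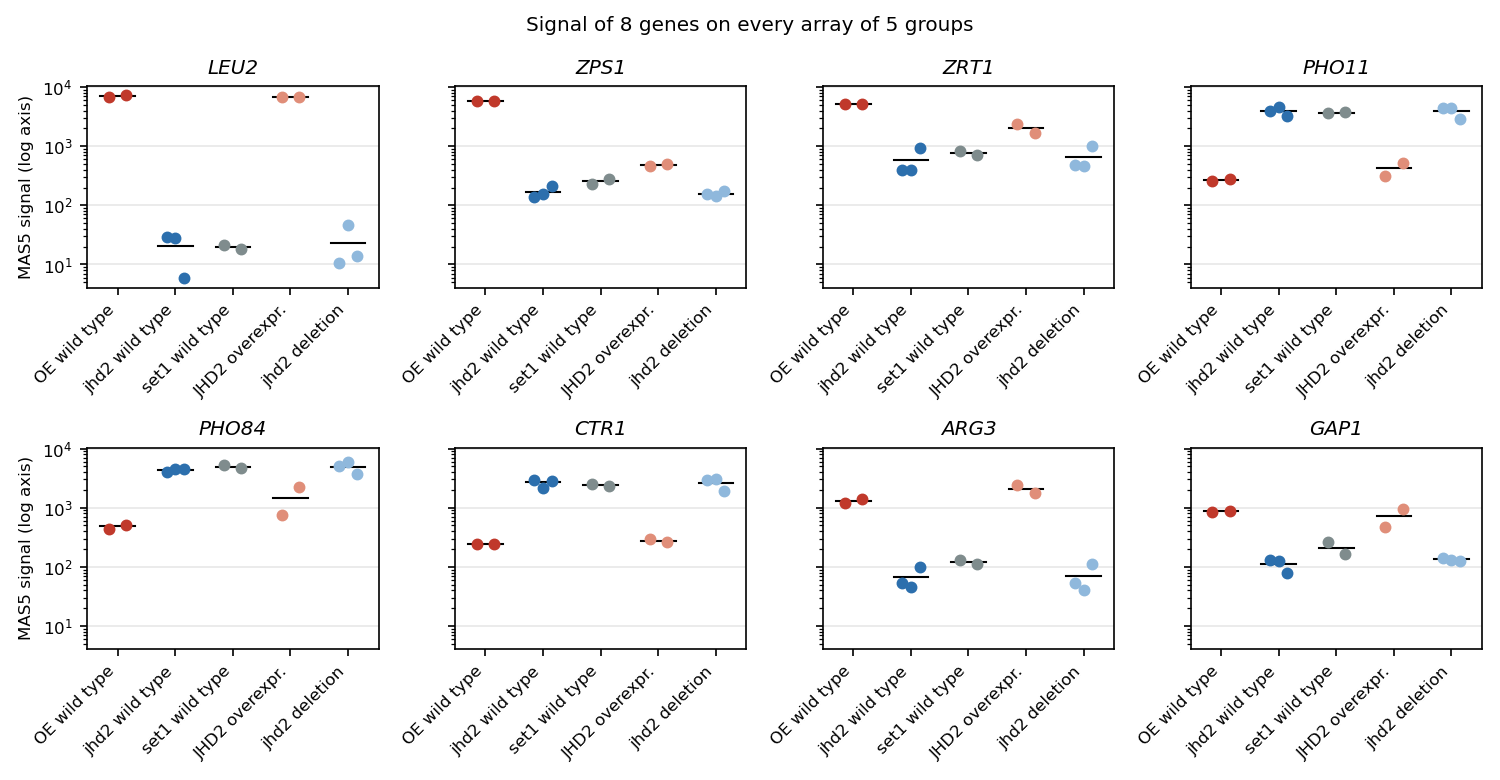
MAS5 signal (log axis) of 8 genes on every array of 5 groups; points are arrays and black bars are group means (OE wild type n = 2, jhd2 wild type n = 3, set1 wild type n = 2, JHD2 overexpression n = 2, jhd2 deletion n = 3). The genes shown were picked with earlier results known, and the OE wild type stands apart from the jhd2 wild type in all 8 panels. The set1 wild type lies near the jhd2 wild type for CTR1, at 2532 and 2290 against 2993, 2195 and 2832. For GAP1 and ARG3 it lies above the jhd2 wild type, between the groups.

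Of 5415 genes tested, 880 (16.3%) differed between the wild types at an adjusted p under 0.05 in limma on log2 signal. Of these, 582 (10.7% of genes tested) were higher and 298 (5.50%) were lower in the OE wild type. The count of each list below is read against these shares of all genes. At 2-fold or more, 286 called genes were higher and 45 were lower. The split by direction depended on the scaling between arrays: quantile normalization gave 406 higher and 472 lower, and centring each array on its median gave 436 higher and 558 lower. The median log2 difference of all genes was 0.07 as deposited, and -0.06 under both of these scalings, so changes below are read against a median near 0. For 2956 genes (54.6%) the signals of the OE wild type and of the jhd2 wild type did not overlap. Pearson's r of log2 signal across genes was 0.986 between the OE wild-type arrays, 0.9688 to 0.9895 among the jhd2 wild-type arrays, and 0.9288 to 0.9504 between the groups. The cultures were measured in bulk, so fewer cells of a kind and less RNA per cell cannot be told apart.

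Zinc genes were higher in the OE wild type. Of 18 listed targets of Zap1, 8 rose and 1 fell, with a median log2 difference of 0.44 against 0.07 over all genes. ZPS1, which encodes a cell wall protein made in low zinc, had signals of 5912 and 5755 in the OE wild type and 141, 157 and 209 in the jhd2 wild type. This was a 34.99-fold difference, or 5.13 ± 0.17 (SE) on the log2 scale, with an adjusted p of 6.32e-09. ZRT1, the high-affinity zinc transporter of the plasma membrane, was at 5239 and 5220 against 400, 399 and 932, a log2 difference of 3.30 ± 0.37. Both genes were high on both OE wild-type arrays, and the groups did not overlap. In the set1 wild type ZPS1 was at 228 and 279 and ZRT1 at 820 and 718, within or just above the range of the jhd2 wild type.

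ZAP1, the gene of the activator, was at 676 and 739 against 165, 178 and 157, a 4.24-fold difference (adjusted p = 4.81e-05). ADH4, an alcohol dehydrogenase gene under Zap1, was at 1966 and 1973 against 725, 895 and 711. VEL1, a Zap1 target of unknown function, was dim throughout, at 60.4 and 33.2 against 9.34, 4.38 and 14.7. Smaller rises were called for ZRT2 (low-affinity zinc uptake, 0.89), ZRT3 (release of zinc from the vacuole, 0.75) and ZRG8 (1.12). FET4, a low-affinity transporter of iron that also takes up zinc, was the member that fell, at 783 and 664 against 1516, 1109 and 1450 (log2 -0.90). The calls of ZPS1, ZRT1, ZAP1 and ADH4 held without any single array. Those of ZRT2 and VEL1 were lost without OE wild type replicate 1, that of FET4 without replicate 2, and that of ZRT3 without either of these replicates. The call of ZRG8 was lost without either OE wild-type array or without jhd2 wild type replicate 3. The number of targets that rose was 4 without OE wild type replicate 1, 6 without its replicate 2, and 7 without jhd2 wild type replicate 3. Of 7 genes for zinc storage and export, 1 rose (14.3%, against 10.7% of all genes). This was IZH3, a membrane protein gene, at 1038 and 1194 against 665, 747 and 450. Its call was lost without OE wild type replicate 2.

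Phosphate genes moved the opposite way. Of 18 tested members of the PHO regulon, 12 fell and 1 rose, with a median log2 difference of -1.03. PHO11, a secreted acid phosphatase gene whose probe set is shared with near-identical sequence, was at 262 and 284 in the OE wild type and at 3882, 4637 and 3300 in the jhd2 wild type. It was 14.3-fold lower (log2 -3.84 ± 0.23, adjusted p = 1.17e-06). PHO5, the main secreted acid phosphatase gene, was at 361 and 289 against 2390, 2435 and 2017. Every OE wild-type value of these genes lay below every jhd2 wild-type value by a wide margin.

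PHO84, the high-affinity phosphate transporter gene, was at 443 and 519 against 4036, 4555 and 4544, a 9.11-fold difference. PHO89, a sodium-coupled phosphate transporter gene, was at 271 and 221 against 1018, 1052 and 806. In the set1 wild type PHO84 was at 5283 and 4622 and PHO89 at 1755 and 3269, as high as or higher than in the jhd2 wild type. SPL2, which restrains low-affinity phosphate uptake, was at 122 and 114 against 1712, 1724 and 846. PHM6, a gene of unknown function, was at 47.8 and 29.5 against 483, 523 and 360. The vacuolar polyphosphate genes followed, with log2 differences of -2.02 for VTC3, -1.10 for VTC4, -0.96 for VTC1 and -0.56 for VTC2. PHO81, an inhibitor of the Pho80-Pho85 kinase, fell by 1.25, and PHO86, needed for export of Pho84 from the endoplasmic reticulum, fell by 0.97 on the log2 scale.

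PHM7, a membrane protein gene listed with phosphate-responsive genes, went against the rest, at 384 and 294 against 80.4, 49.2 and 50.1. PHM8, a lysophosphatidic acid phosphatase gene, had a log2 difference of 0.52 that did not pass the test. Of 11 genes for phosphate signalling and low-affinity uptake, 2 rose (18.2%, against 10.7% of all genes). These were PHO87 (0.99) and PHO90 (0.50), both low-affinity transporter genes. Between 10 and 12 members of the regulon fell when single arrays were left out. Calls lost in that way were PHO81 and VTC2 (without OE wild type replicate 2) and VTC1 (without replicate 1). The calls of PHO87 and PHO90 were lost without either OE wild-type array or without jhd2 wild type replicate 1, and that of PHO87 also without jhd2 wild type replicate 2. That of PHO90 was also lost under median centring.

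Copper uptake genes were lower in the OE wild type. Of 7 listed Mac1 genes, 6 fell and 1 rose, with a median log2 difference of -1.07. CTR1, the high-affinity copper transporter gene, was at 243 and 247 in the OE wild type and at 2993, 2195 and 2832 in the jhd2 wild type. It was 10.8-fold lower (log2 -3.44 ± 0.19, adjusted p = 8.83e-07). FRE1, the surface reductase gene for copper and iron, was at 352 and 292 against 3245, 2857 and 2910. FRE7, a reductase gene induced in low copper, was at 12.6 and 9.82 against 281, 140 and 191, with 1 of the OE wild-type arrays above background. CTR1 and FRE1 were 10.8-fold and 9.35-fold lower, no exact fold holds for FRE7 so near background, and the 3 calls held without any single array.

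IRC7, a β-lyase gene in the same list, was at 650 and 968 against 1951, 1664 and 1428, and its call was lost without OE wild type replicate 1. The falls of CTR3, a second copper transporter gene (-0.59), and REE1 (-0.71) and the rise of MAC1 itself (0.45) were small. These 3 calls were each lost without 4 of the 5 arrays in turn, and for MAC1 without each of the 5, so that 3 to 5 genes fell and none rose in those fits. MAC1 was not called under quantile normalization or median centring. Among 13 genes for copper binding and delivery, 1 rose and 1 fell (7.7% each, against 10.7% and 5.50% of all genes). CRS5, a metallothionein gene, was at 967 and 811 against 395, 394 and 425, a 2.19-fold difference (adjusted p = 0.00167). CUP1-1, the other metallothionein gene, had signals of 7384 and 7803 against 6791, 7563 and 8587, which overlapped. CCS1, the copper chaperone gene of superoxide dismutase, had a log2 difference of -0.35, whose call was lost without either OE wild-type array or without jhd2 wild type replicate 1 or 2.

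Iron genes split. Of 29 listed members of the iron regulon, 5 rose and 5 fell (17.2% each, against 10.7% and 5.50% of all genes). The median log2 difference was -0.30. FIT2 and FIT3, cell wall mannoproteins that help retain siderophore iron, were lower. FIT2 was at 417 and 372 against 1590, 2382 and 1251 (log2 -2.09 ± 0.26), and FIT3 at 519 and 453 against 1572, 2320 and 1347 (-1.81 ± 0.21). The siderophore transporter genes ENB1 (-0.92) and ARN2 (-0.85) and SMF3, which exports iron from the vacuole (-0.55), also fell. ISU1, the scaffold of iron-sulfur cluster assembly, was higher, at 2336 and 2849 against 963, 1156 and 824.

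VHT1, a biotin transporter gene, was at 1021 and 1082 against 297, 368 and 442. BIO5, a transporter gene of a biotin precursor (1.30), MRS4, a mitochondrial iron carrier gene (0.79), and AFT1, the gene of the activator (0.50), were the other members that rose. FTR1 and FET3, the permease and oxidase of high-affinity iron uptake, had log2 differences of -0.68 and -0.30 that did not pass the test. The split moved with the scaling, since quantile normalization gave 2 higher and 12 lower, and median centring 3 higher and 9 lower. The calls of FIT2, FIT3, ISU1 and VHT1 held without any single array. That of ENB1 was lost without OE wild type replicate 2, that of BIO5 without its replicate 1 or without jhd2 wild type replicate 3, and those of AFT1, ARN2, SMF3 and MRS4 without 4 or more of the 5 arrays in turn. Leaving out single arrays gave 2 to 4 genes higher and 2 to 4 lower. Of 11 genes that use or store iron, 1 was called lower (9.1%, against 5.50% of all genes). This was HEM13 of haem synthesis (-0.86), and its call was lost without 4 of the 5 arrays in turn.

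**Figure D2:**
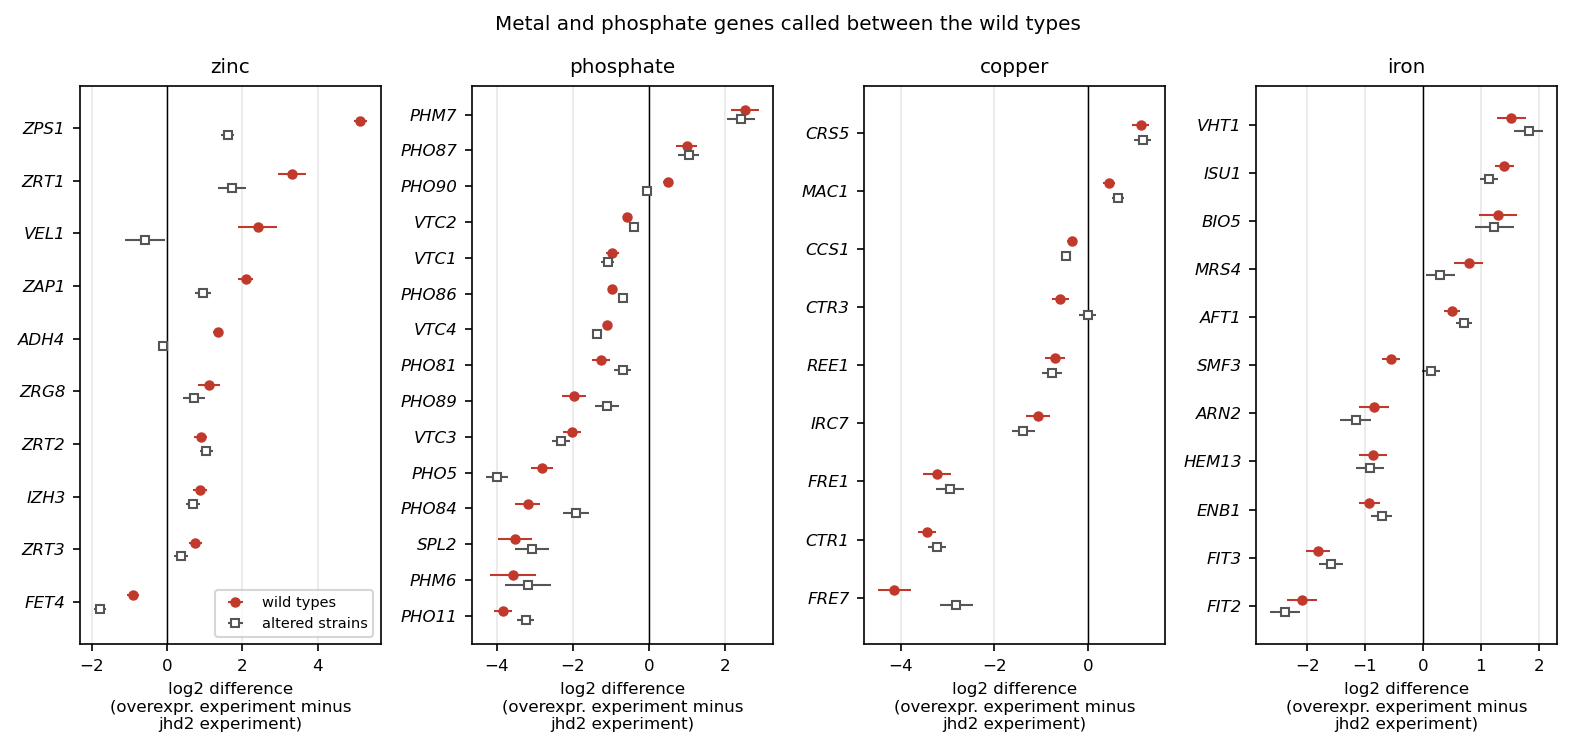
Log2 difference (overexpression experiment minus jhd2 deletion experiment) of the zinc, phosphate, copper and iron genes called between the wild types; filled circles compare the wild types, open squares the altered strains, and bars are ± 1 SE from limma. CTR1 lies at -3.44 in the wild types and -3.23 in the altered strains, PHO84 at -3.19 and -1.92, PHO5 at -2.81 and -3.997, and ZPS1 at 5.13 and 1.62.

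Among 10 genes for manganese and magnesium transport, 2 fell (20.0%, against 5.50% of all genes): SMF1, a manganese transporter gene (-0.64), and ALR1, a magnesium transporter gene (-0.53). Among 11 genes for potassium, sodium and calcium transport, 1 fell (9.1%), MID1, a calcium channel gene (-0.51). The call of SMF1 was lost without OE wild type replicate 1, and those of ALR1 and MID1 without 4 of the 5 arrays in turn.

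Called genes of amino acid synthesis and uptake were mostly higher in the OE wild type, with few in the leucine branch. Besides LEU2, 2 of the other 14 leucine and branched-chain genes were called. LEU4, for the first committed step of leucine synthesis, was at 4103 and 4662 against 2576, 2860 and 2891, and its call was lost without OE wild type replicate 2. BAP3, a branched-chain amino acid permease gene, was at 2916 and 3007 against 1722, 1754 and 1952. LEU1, the isopropylmalate isomerase gene next to LEU2 in the pathway, had overlapping signals of 5630 and 5773 against 5688, 5409 and 5425. ILV2, for acetolactate synthase, had a log2 difference of 0.33 that did not pass the test.

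The arginine list had 9 of 12 tested genes higher, none lower, and a median log2 difference of 1.42. ARG3, the ornithine transcarbamylase gene, was at 1204 and 1426 in the OE wild type and 54.0, 46.1 and 100 in the jhd2 wild type. It was 20.8-fold higher (log2 4.38 ± 0.40, adjusted p = 2.11e-05), and the set1 wild type was low as well, at 131 and 112. ORT1, the mitochondrial ornithine carrier gene, was at 1007 and 1064 against 282, 258 and 320. ARG4 (argininosuccinate lyase, 1.93) and CPA1 (carbamoyl phosphate synthetase, 1.53) rose by less.

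Of 30 sulfur and methionine genes, 18 rose and none fell. MET10, a sulfite reductase subunit gene, was at 1917 and 1913 against 363, 385 and 307, a 5.47-fold difference. MET3 (ATP sulfurylase, 2.34) and MET16 (another reductase of the pathway, 2.30) rose with it. So did SAM3, an S-adenosylmethionine permease gene, at 1788 and 1837 against 572, 647 and 581. STR3, a cystathionine β-lyase gene, was at 860 and 1165 against 88.6, 73.6 and 124. MET17, whose other name MET15 stands in the labels, was at 5014 and 5266 against 2833, 2858 and 2865, a difference that did not pass the test (adjusted p = 0.0908).

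Of 10 lysine genes 5 rose, of 7 histidine genes 5 and of 14 aromatic genes 7, and none fell in any of these lists, of which the lysine and aromatic lists share ARO8. The lysine count was 3 without OE wild type replicate 1, and the histidine count 3 without its replicate 2. LYS1, the last enzyme of lysine synthesis, was at 1047 and 1384 against 322, 309 and 193. LYS21 (homocitrate synthase, 1.30), HIS5 (histidinol phosphate aminotransferase, 0.86), TRP4 (1.01) and ARO10 (a phenylpyruvate decarboxylase of amino acid breakdown, 2.02) were among the others, and the call of HIS5 was lost without OE wild type replicate 2. The serine, glycine and threonine list split, with 3 higher and 2 lower of 16 (18.8% and 12.5%, against 10.7% and 5.50% of all genes). It gave 1 and 1 without OE wild type replicate 1, and 1 and 2 without its replicate 2. CHA1, the catabolic serine and threonine deaminase gene, was at 1353 and 1213 against 2981, 3008 and 2832 (log2 -1.20 ± 0.15). Under median centring 1 histidine and 1 aromatic gene were called lower.

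Of 17 genes listed for general amino acid control, which overlaps these lists, 10 rose and none fell. SNZ1 and SNO1, neighbouring genes of pyridoxine synthesis, had the most extreme differences of this list beside ARG3. SNZ1 was at 3171 and 4153 against 267, 346 and 153, a log2 difference of 3.91 ± 0.27. SNO1 was at 340 and 646 against 25.2, 19.6 and 12.5, a log2 difference of 4.67 ± 0.39.

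Permeases and nitrogen-source genes were higher. Of 19 amino acid permease and sensor genes 12 rose, and of 28 genes under nitrogen catabolite repression 16 rose, with none lower in either list and with some genes in both. GAP1, the general amino acid permease gene, was at 844 and 895 against 129, 124 and 78.5, an 8.05-fold difference (log2 3.01 ± 0.31). AGP1, a broad permease gene, was at 3490 and 2854 against 601, 598 and 733. PUT4, the proline permease gene, was at 112 and 111 against 17.99, 20.8 and 15.9. UGA3, the activator of γ-aminobutyrate use, was at 799 and 790 against 210, 197 and 192. In the set1 wild type GAP1 lay at 260 and 163 and AGP1 at 975 and 1495, between the groups. The count for nitrogen catabolite repression was 9 without OE wild type replicate 1 and 13 without its replicate 2.

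Vitamin, nucleotide and lipid genes held smaller groups of calls. Of 6 biotin genes 4 rose and 1 fell, with BIO3 at 291 and 358 against 103, 94.7 and 86.6. Quantile normalization left 2 biotin genes higher, and the gene that fell was not called without either OE wild-type array or without jhd2 wild type replicate 1 or 2. Of 15 thiamine and pyridoxine genes 5 rose and 1 fell, and 2 rose and 1 fell both under quantile normalization and without OE wild type replicate 1. The member that fell was PHO3, a thiamine-regulated acid phosphatase gene, at 1007 and 991 against 2153, 1958 and 1934. Of 14 genes of NAD synthesis 2 rose (14.3%, against 10.7% of all genes). These were BNA1 (1.21) and NRK1 (0.47), and the call of NRK1 was lost without 4 of the 5 arrays in turn. Purine genes gave 0 higher and 2 lower (12.5%) of 16, and pyrimidine genes 1 higher (9.1%) and 2 lower (18.2%) of 11. Of all genes, 10.7% were called higher and 5.50% lower. Both purine calls were lost without either OE wild-type array and 1 of them without jhd2 wild type replicate 3, and the pyrimidine genes gave 2 higher without jhd2 wild type replicate 2. The pyrimidine gene that rose in the full comparison was URA10, the minor orotate phosphoribosyltransferase gene, at 519 and 563 against 139, 127 and 139.

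Inositol and choline responsive genes were higher, 9 of 18 with none lower. INO1, the inositol phosphate synthase gene that makes inositol, was at 449 and 489 against 45.6, 52.8 and 60.2, an 8.92-fold difference (log2 3.16 ± 0.27, adjusted p = 1.55e-05). OPI3, a phospholipid methyltransferase gene, was at 4477 and 4422 against 1328, 1258 and 1416. The set1 wild type was near the jhd2 wild type, with INO1 at 76.0 and 64.8. Without either OE wild-type array the count was 4, and the calls of INO1 and OPI3 held in each of those fits. Of 25 ergosterol genes none rose and 2 fell (8.0%, against 5.50% of all genes). These were ERG13 (-0.57) and ERG26 (-0.30), whose calls were both lost without OE wild type replicate 1.

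Genes that glucose represses were higher, 21 of 27 with none lower and a median log2 difference of 1.27. ICL1, the isocitrate lyase gene of the glyoxylate cycle, was at 429 and 341 against 88.6, 81.7 and 76.3. POT1, a peroxisomal thiolase gene of fatty acid breakdown, was dim, at 57.6 and 59.9 against 4.71, 6.88 and 12.1, with 1 jhd2 wild-type array above background. The count was 8 without OE wild type replicate 1, 12 without its replicate 2, and 16 to 18 without each jhd2 wild-type array. Hexose transporter genes gave 2 higher of 18, and 1 without OE wild type replicate 1. Those 2 hexose genes are 11.1% of their list, against 10.7% of all genes. HXT5, made in slow growth, was at 414 and 339 against 63.6, 68.4 and 48.5. The glycolysis list gave 2 higher of 21 (9.5%), ADH2 (1.01) and PDC6 (1.23), and none under quantile normalization. The call of PDC6 was lost without 4 of the 5 arrays in turn. Of 36 respiratory genes 1 rose (2.8%), COX5B (1.19), whose call was lost without either OE wild-type array.

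Of 20 storage and stress genes 5 rose (25.0%, against 10.7% of all genes), with a median log2 difference of 1.18. The count depended on the arrays fitted: it was 12 with only the 5 arrays compared, and 9 with the 10 arrays of the 2 experiments. HSP12, a small membrane heat shock protein gene, was at 5656 and 5589 against 632, 361 and 730. The set1 wild type was uneven here, with HSP12 at 809 and 2810. SPG4, a stationary-phase gene outside this list, was at 1687 and 1736 against 81.6, 42.8 and 27.3, and at 89.9 and 862 in the set1 wild type. The median of this list, set against the jhd2 wild-type mean, was 1.13 and 1.15 on the OE wild-type arrays, and -0.50 and 1.25 on the set1 wild-type arrays. Leaving out single arrays gave 2 to 5 genes higher.

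Oxygen-related cell wall genes and chaperones included falls. Called lower were 37.5% of the oxygen list and 20.0% of the chaperone list, against 5.50% of all genes. Called higher were 12.5% of the oxygen list, 18.2% of galactose and maltose genes and 5.0% of meiotic genes, against 10.7% of all genes. Of 16 anaerobic mannoprotein and oxygen genes 6 fell and 2 rose. Without OE wild type replicate 1 these were 2 and 0, without its replicate 2 they were 1 and 0, and without jhd2 wild type replicate 3 they were 4 and 1. TIR1, a cold and anaerobic mannoprotein gene, was at 253 and 174 against 1439, 1492 and 1732 (log2 -2.88 ± 0.17, adjusted p = 1.17e-06). Of 20 chaperone genes 4 fell, each by less than 1 on the log2 scale, with CPR6, a partner of Hsp90, at -0.62. All 4 chaperone calls were lost without OE wild type replicate 1. Galactose and maltose genes gave 2 higher of 11, with none under quantile normalization, without either OE wild-type array or without jhd2 wild type replicate 3, and 1 without jhd2 wild type replicate 1 or 2. Meiotic genes gave 1 higher of 20, and none under either other scaling or without any 1 array.

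Among the mating-type markers themselves, 2 of 7 a-specific genes were higher (MFA2 and AGA2) and 2 of 5 α-specific genes were lower (MF(ALPHA)2 and STE3). The calls of MFA2 and AGA2 were lost without either OE wild-type array and under quantile normalization, that of AGA2 also without jhd2 wild type replicate 1 or 2, and that of STE3 without OE wild type replicate 2.

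**Figure D3:**
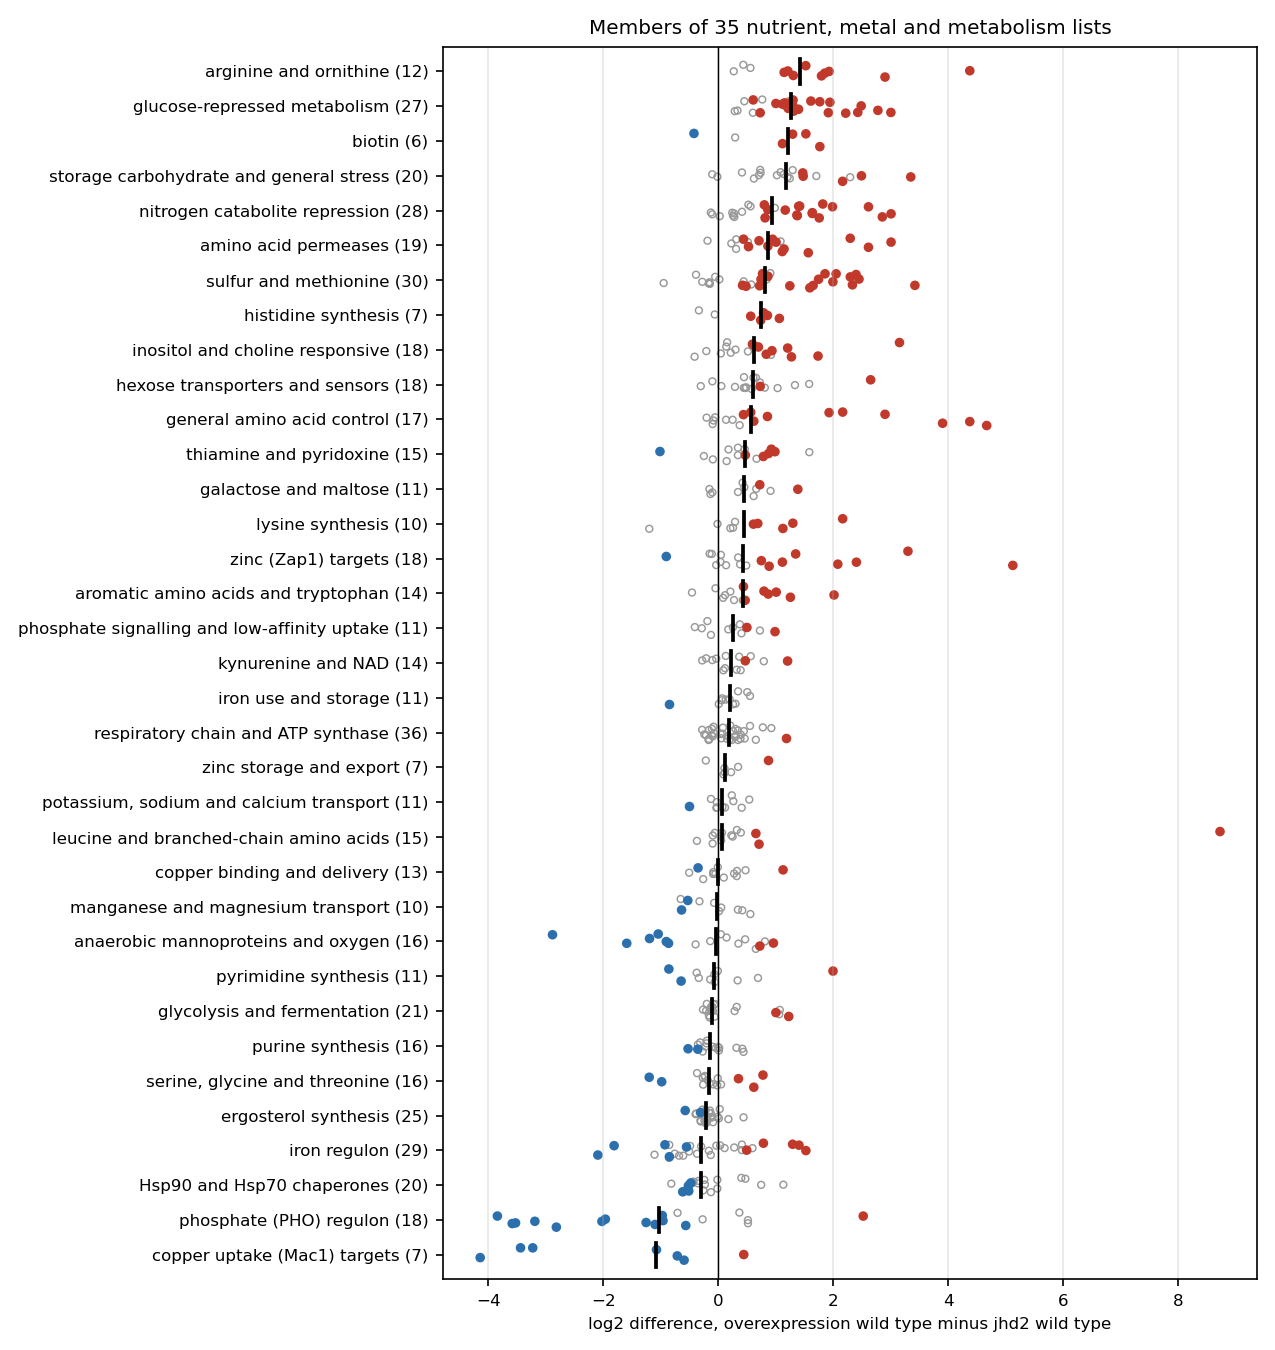
Log2 difference between the wild types (OE wild type minus jhd2 wild type) for the tested members of 35 lists, with the number tested in parentheses; red and blue points passed the test as higher and lower, open points did not, and black bars are list medians. The copper uptake and PHO lists have the lowest medians (-1.07 and -1.03), and the arginine and glucose-repressed lists the highest (1.42 and 1.27).

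In all, the 39 lists held 575 tested genes, of which 200 (34.8%) were called, against 16.3% of all genes tested. The lists were chosen with earlier results of these data known, so this share is no test of the pathways. A further 680 called genes were in no list. Among the genes with the largest differences outside the lists, FMP45, a membrane protein gene of the SUR7 family, was at 802 and 896 against 71.9, 66.6 and 17.7. Its log2 difference of 4.27 was 3.62 without jhd2 wild type replicate 3. SRL4 was at 97.4 and 162 against 7.33, 7.42 and 8.40, with 1 jhd2 wild-type array above background. RTC2, a vacuolar membrane transporter gene for basic amino acids, was at 1054 and 1287 against 93.2, 58.4 and 103. SPG1, named for survival in stationary phase, was at 404 and 302 against 32.02, 17.3 and 28.4. SRO9, an RNA-binding protein gene, was lower, at 260 and 146 against 1675, 1973 and 833. YDL241W, a gene of unknown function, was at 238 and 268 against 1654, 1219 and 1952. These 6 genes were named because their groups do not overlap.

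The set1 wild type, which has the a mating expression type, gave another wild-type reading. Its mean log2 signal was nearer to the jhd2 wild type than to the OE wild type for 708 of the 880 called genes (80.5%), against 61.8% of all genes tested. Its list medians, set against the jhd2 wild-type mean, were 0.09 and 0.08 for the PHO regulon, where the OE wild-type arrays had -1.004 and -1.063. For copper uptake they were 0.23 and 0.03 against -1.36 and -0.79. For the arginine list they were 0.32 and 0.41 against 1.35 and 1.49, and for glucose-repressed genes 0.27 and 0.90 against 1.39 and 1.16.

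The altered strains of the same experiments share no array with the wild types, and they differ in JHD2 as well as in experiment. Between them, 1543 genes (28.5%) were called, 942 (17.4%) higher and 601 (11.1%) lower in the overexpression strain. Of the 880 genes called between the wild types, 843 (95.8%) had the same sign between the altered strains, against 71.8% of all genes tested. Of the 582 genes higher in the OE wild type, 397 were also called higher in the overexpression strain, which is 68.2% of the wild-type list and 42.1% of the altered-strain list. Of the 298 lower genes, 167 were also called lower, 56.0% of the wild-type list and 27.8% of the altered-strain list. In opposite directions, 1 gene was called.

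Of the PHO regulon 12 genes were called lower in both comparisons and 1 higher, and of the copper uptake genes 5 were called lower in both and 1 higher. CTR1 was at 293 and 260 in the overexpression strain and at 2940, 3093 and 1914 in the deletion strain. PHO11 was at 310 and 529 against 4367, 4485 and 2893. PHO84 was at 747 and 2225 against 5083, 6021 and 3773, so that its overexpression-strain arrays differed from each other. ARG3 was high in the overexpression strain too, at 2411 and 1772 against 53.0, 41.1 and 112.

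Some zinc and inositol genes had smaller differences between the altered strains, and the zinc lists did not move as a whole. Of 18 Zap1 targets, 5 were called higher and 1 lower between the altered strains, and of 18 inositol and choline genes 2 higher and 2 lower. Zinc storage and export differed by more, with 4 of 7 genes higher and a median log2 difference of 0.64, against 1 of 7 and 0.12 between the wild types. FET4 also differed by more, at -1.78 against -0.90. ZPS1 was at 459 and 508 in the overexpression strain and at 158, 142 and 175 in the deletion strain, a log2 difference of 1.62 where the wild types gave 5.13. ADH4 was at 622 and 658 against 678, 695 and 706, and INO1 at 50.9 and 82.8 against 38.3, 46.6 and 59.1, where neither passed the test. CHA1 was lower in both comparisons and differed by more here, at 177 and 271 against 3155, 3211 and 2662. Its log2 difference was -3.78 where the wild types gave -1.20. The signals of ZPS1, ADH4, INO1 and CHA1 on both overexpression-strain arrays lay below both arrays of the OE wild type, the wild type of the same experiment. These genes were picked by the test given next, whose contrast contains this difference, so it is a description only. No share over all genes was computed for it. The 3′ over 5′ log2 ratio also differed between these groups, at 1.44 and 1.43 against 0.88 and 0.66.

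The difference between the comparisons was itself tested, and 5 genes (0.0923%) passed. Apart from JHD2 these were ZPS1 (log2 3.51 ± 0.25, adjusted p = 1.61e-05), CHA1 (2.58 ± 0.22, adjusted p = 9.49e-05), ADH4 (1.47 ± 0.17, adjusted p = 0.0021) and INO1 (2.70 ± 0.38, adjusted p = 0.0131). At an unadjusted p under 0.05 there were 631 genes. Same-numbered wild-type and deletion arrays of the jhd2 experiment deviated together (r of 0.62 to 0.69 in 3 pairs). Those of the overexpression experiment did not (r of -0.137 for replicates 1 and 2). The r values within an experiment are not independent, because deviations from a group mean cancel out within the group. Replicate 3 of both jhd2-experiment strains also had a raised 3′ over 5′ ratio, whose part in these r values was not tested. With experiment and replicate number as a random block 402 genes (7.42%) passed, with 216 under a fixed block. The random block gave all experiments 1 shared correlation of 0.498. Its counts thus assume a pairing that the overexpression arrays did not show. In the random block 8 of 18 inositol and choline genes and 6 of 18 Zap1 targets passed, among them OPI3 (0.70), ZRT1 (1.58), ZAP1 (1.12) and VEL1 (2.99). For all 8 inositol genes, and for 5 of the 6 zinc genes, the difference had the sign of the wild-type comparison. So it had for 323 of all 402 genes that passed. The wild-type difference is a term of the tested contrast, so this match is partly built in. Of 7 copper uptake genes none passed in the random block, and of 18 PHO genes 3 did.

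**Figure D4:**
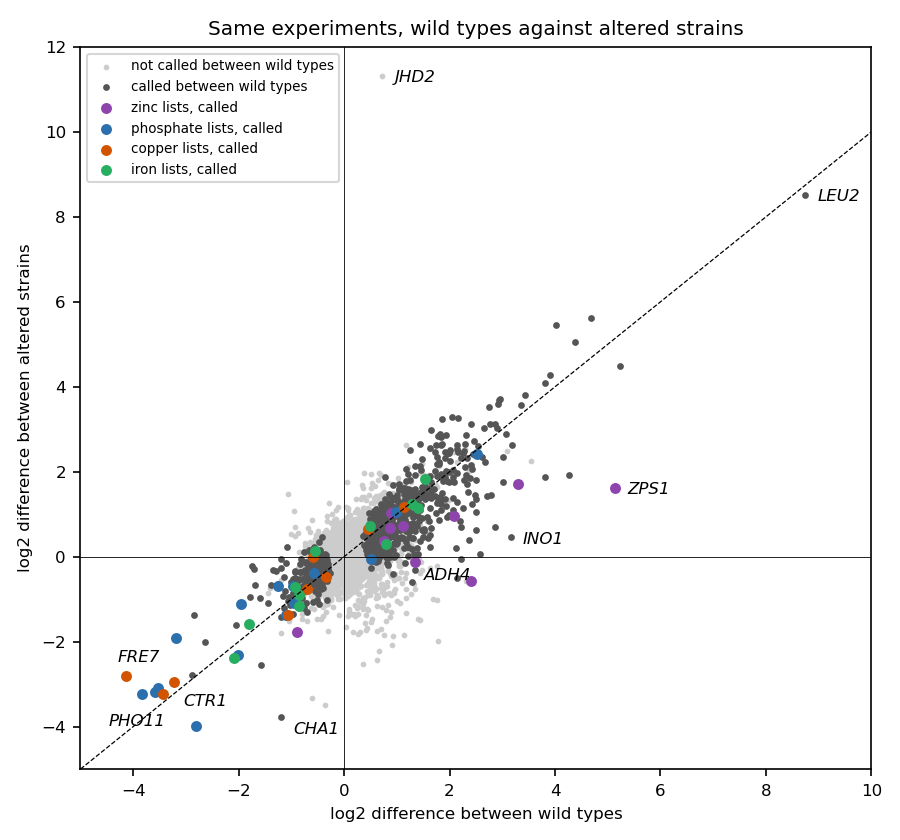
Log2 difference between the wild types (horizontal, OE wild type minus jhd2 wild type) against that between the altered strains (vertical, JHD2 overexpression minus jhd2 deletion) for every gene tested; dark and coloured points were called between the wild types, and the dashed line marks equal differences. ZPS1, INO1 and ADH4 lie below the line and CTR1 and PHO11 close to it, while JHD2 lies alone at the top, with the deletion-strain signals below background.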

How the data were processed

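Total RNA was hybridised to Affymetrix Yeast 2.0 arrays from 10 ug per sample, per the labels' protocols. The authors deposited 1 intensity per probe set and array, a MAS5 signal per the submitters' processing notes. No scanner files were used. The trimmed mean (2% off each end) is 500.2 or 500.3 on every array, so the deposited intensity values were already scaled to a common level. The notes name no MAS5 version or scaling target. Precision is limited by the number of arrays.

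Of 10928 probe sets, 5498 match 1 S. cerevisiae gene in the platform annotation (5449 genes), 1 matches several, 1746 match Schizosaccharomyces pombe and 3683 are unnamed here. The brightest probe set stood for each of 47 genes with several. Genes whose mean log2 signal passed the 95th percentile of the S. pombe probe sets were tested, which left 5415 genes and removed 34. Of these, 112 rest on probe sets shared with similar sequence. The same percentile on each array was its background, and fold changes are of mean log2 signals.

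Signals under 1 were set to 1 and log2 values were fitted with limma 3.58.1 in R 4.3.3, as 6 group means over all 14 arrays with an intensity trend and Benjamini-Hochberg adjustment over all genes tested. Every adjusted p is from this fit. The fit was tested on simulated arrays with independent noise and 200 genes changed by a known amount. It called 8.4% of the changed genes at a log2 change of 0.5, 74.8% at 1.0 and 95.2% at 2.0. A small difference that did not pass the test is thus not shown to be absent. Tables were handled with Python 3.11.15 and pandas 2.3.3. Replicate numbers did not pair the wild types: same-numbered arrays had deviations correlated at 0.10 and 0.03.

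The 39 lists hold 599 different genes from general knowledge of yeast pathways, of which 575 were tested. The arrays compared, the lists and the named genes were chosen with earlier results of these data known. Named genes were the markers LEU2, ZPS1, PHO11 and CTR1, the strain genes, the 12 highest and 12 lowest called genes whose groups do not overlap, members of the zinc, phosphate, copper, iron and leucine lists, up to 4 called genes with the smallest p in each other list, and the 10 genes with the smallest p of the difference between comparisons. Alternatives changed the scaling, filter, floor, variance model, arrays, block, probe set rule, 3′/5′ covariate and threshold.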

Additional observations from a re-analysis of the deposited data

Results flagged for a closer look

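For 5 genes the difference between the experiments was not the same in the wild types as in the altered strains, by the test of that difference in limma. The value given is the log2 difference between the wild types minus that between the altered strains. For JHD2 it was -10.60, where the deletion-strain signals are below background, so that this size is no measured fold. For ZPS1 it was 3.51, for INO1 2.70, for CHA1 2.58 and for ADH4 1.47.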

How the results depend on the processing

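The count of 880 genes between the wild types was 1773 with array weights and 1367 with the 3′/5′ ratio as a covariate. At other thresholds it was 351 (adjusted p under 0.01), 1372 (under 0.10) and 331 (with a 2-fold difference). It ranged from 257 to 727 when single arrays were left out: 257 and 382 without OE wild type replicate 1 or 2, and 727, 581 and 651 without jhd2 wild type replicate 1, 2 or 3. With the replicate number as a fixed block it was 1140, and the wild types share only that number. Quantile normalization gave 878 and median centring 994, with 46.2% and 43.9% of the calls higher against 66.1%.

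The count of 1543 between the altered strains was 3132 with array weights, 999 with only their 5 arrays, 2358 under the replicate block, 1021 with the covariate, 2510 without both replicate 3 arrays of the jhd2 experiment, 548 at an adjusted p under 0.01 and 390 with a 2-fold difference. It ranged from 365 (without overexpression strain replicate 1) to 2125 (without deletion strain replicate 3), with 626 without overexpression strain replicate 2 and 887 and 720 without deletion strain replicate 1 or 2. Its calls were 61.0% higher, against 45.9% after quantile normalization and 34.3% after median centring.

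The count of 5 for the difference between the comparisons was 8 with log2(signal + 32), 8 with no intensity trend, 870 with array weights, 216 under the replicate block, 402 under the random block, 13 with the covariate and 352 without both replicate 3 arrays. Left-out single arrays gave 4 to 65, the highest without deletion strain replicate 3. The causes of these moves were not tested. Of 147 genes followed between the wild types, none turned in sign with a call, 58 calls were lost in at least 1 setting, and 83 genes were called in every setting. Signal over background limits FRE7, POT1, SRL4, VEL1 and LEU2, each dim on arrays of 1 group.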
